A study of Homo sapiens with 4 samples.

Results

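The 10 genes described here encode the best known members of the BCL2 family of survival and death proteins, and they were picked by gene symbol out of 43450 Ensembl gene IDs with an expression value. They comprise BCL2, BCL2L1, MCL1 and BCL2A1, which protect cells, BAX and BAK1, which carry out killing, and BCL2L11, BBC3, BID and BAD, which trigger it. All 10 matched a row, and 9 passed the filter on low values; BCL2A1 did not. The study used BLaER1 cells, a human line from a B cell leukaemia that carries an inducible C/EBPα transgene; they were kept in RPMI with serum, and no induction is stated. The libraries comprised 2 labelled control (replicates 0 and 1) and 2 labelled HAL7 knockdown (replicates 0 and 1), in which 3 LNA GapmeRs against the long non-coding RNA HAL7 had been added to the medium without transfection. The labels do not give what the controls received or how long exposure lasted. They also do not say whether replicates were separate cultures, so each p-value reflects the spread among these 4 libraries alone, and that spread may be technical. Expression is given in FPKM, a count of fragments scaled to transcript length and to the size of the library. FPKM is per length, so levels can be set side by side between genes. Between libraries they also depend on how the libraries were scaled, which the sources used here do not give. Summed FPKM ran from 812554 in knockdown replicate 0 to 853609 in knockdown replicate 1.

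BCL2 family proteins decide whether the outer membrane of the mitochondrion stays intact. BAX and BAK1 form the pores through which cytochrome c escapes to activate caspases, the proteases that dismantle the cell. BCL2, BCL2L1 (which encodes BCL-XL), MCL1 and BCL2A1 hold the pore formers and their activators in a groove on their surface. The BH3-only proteins share with the others a short helix, the BH3 domain, that fits this groove. They include BCL2L11 (BIM), BBC3 (PUMA), BID and BAD. Developing B cells depend on this balance, and many B cell malignancies depend on BCL2 or MCL1. Much of the control acts on the proteins, through cleavage of BID, phosphorylation of BAD and rapid turnover of MCL1, which RNA values do not show.

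The BH3 domain ties the roles together, and its coding sequence is therefore shown for the 9 members in which it was found. The search took the translated coding sequence of 1 principal GENCODE 29 transcript per gene. It looked for a leucine, then 2 residues of any kind, a hydrophobic residue, a small residue (glycine, alanine or serine) and an aspartate. Each stretch of 27 bases runs 5′ to 3′ in the coding sense, and capitals mark the leucine and aspartate codons.
BCL2: ctgaccCTCcgccaggccggcGACgac
BCL2L1: caagcgCTGagggaggcaggcGACgag
MCL1: gagaccTTAcgacgggttgggGATggc
BAX: gagtgtCTCaagcgcatcgggGACgaa
BAK1: cggcagCTCgccatcatcgggGACgac
BCL2L11: caagagTTGcggcgtattggaGACgag
BBC3: gcccagCTGcggcggatggcgGACgac
BID: aggcacCTCgcccaggtcgggGACagc
BAD: cgcgagCTCcggaggatgagtGACgag
Each member shown had 1 match. BCL2A1 had none, which says only that this pattern is not in its translated sequence. On GRCh38, the pro-survival stretches lay in exon 1 of the transcript used, at chr18:63318358-63318384 for BCL2, chr20:31721931-31721957 for BCL2L1 and chr1:150578874-150578900 for MCL1, all on the minus strand. The effector stretches lay in exon 3 of BAX at chr19:48955781-48955807 on the plus strand and in exon 4 of BAK1 at chr6:33575396-33575422 on the minus strand. Those of the BH3-only genes lay in exon 4 of BCL2L11 at chr2:111150097-111150123 (plus strand), exon 3 of BBC3 at chr19:47226588-47226614, exon 4 of BID at chr22:17739424-17739450 and exon 2 of BAD at chr11:64271631-64271657 (minus strand). The same amino acids were written with different codons: the leucine is CTC in BCL2, BAX, BAK1, BID and BAD, CTG in BCL2L1 and BBC3, TTG in BCL2L11 and TTA in MCL1. GC content of these stretches ran from 55.6% in BCL2L11 to 77.8% in BBC3 and BCL2.

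HAL7, the target of the GapmeRs, was lower in both libraries labelled knockdown, without passing the test. It stood at 0.726 and 0.613 FPKM in control replicates 0 and 1 and at 0.475 and 0.347 FPKM in knockdown replicates 0 and 1; the adjusted p from limma was 0.32. Directions below are therefore between libraries by their labels. Depth, recovered from the steps of low FPKM values, corresponded to 60.1 to 127 M fragments per library and was lowest in control replicate 0, if the authors' scaling left totals unchanged. All 11 matched B cell and pre-B cell markers were above the filter, with summed levels of 4412 to 4433 FPKM in control and 4268 to 4271 FPKM in knockdown libraries. Their log2 changes were positive in 2 and negative in 9, and 0 passed limma. Ratios of knockdown to control ran from 0.827 for RAG1 to 1.11 for VPREB1. Of 11 macrophage and monocyte markers, 9 stayed under 1 FPKM in every library, and S100A8 and S100A9 were listed at 0 in all 4. The sum over this list was 38.5 to 39.5 FPKM in control and 36.6 to 40.3 FPKM in knockdown libraries, nearly all of it CSF1R. CSF1R stood at a ratio of 1.01 and CD68, at lower levels, at 0.744. Of 7 T and NK cell markers, 6 stayed under 1 FPKM, CD3D and CD3G were listed at 0, and the sum, nearly all NKG7, was 27.3 to 27.6 FPKM in control and 17.3 to 22.0 FPKM in knockdown libraries. Of 5 erythroid markers, all stayed under 1 FPKM. The part of these shifts in the values below was not tested. These are bulk samples, in which fewer cells of a type and less RNA per cell cannot be told apart.

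BLaER1 cells had a high level of BAX, MCL1 and BCL2L1, an intermediate level of BID, BBC3, BCL2 and BAK1, a low level of BAD and BCL2L11, and next to no BCL2A1. Averaged over the 4 libraries, BAX stood at 75.1 FPKM, above 91.9% of the 12935 genes tested. MCL1 followed at 56.3 FPKM and BCL2L1 at 47.8 FPKM, above 88.4% and 85.9% of tested genes. BID at 31.4 FPKM and BBC3 at 26.4 FPKM came next. BCL2 at 17.5 FPKM and BAK1 at 17.0 FPKM were neighbours whose ranges over the 4 libraries overlapped. BAD at 6.33 FPKM and BCL2L11 at 4.72 FPKM were the lowest of the tested members, above 30.5% and 24.3% of tested genes. Of the 9 pairs of neighbours in this order, 8 had ranges that did not overlap, and the libraries gave 2 orders in all, which differ by the places of BCL2 and BAK1.

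The promoters of BAX and BCL2A1 are shown because these are the members with the highest and the lowest level. Each is the 250 bases before the transcript start in RefSeq (GRCh38.p14), 5′ to 3′ on the gene's own strand, at chr19:48954625-48954874 (plus strand) for BAX and chr15:79971197-79971446 (minus strand) for BCL2A1. Capitals mark matches on either strand to the E-box CACGTG, the GC-box GGGCGG, the CCAAT-box CCAAT and the TATA-box TATAAA; in these windows no match overlaps another.
BAX: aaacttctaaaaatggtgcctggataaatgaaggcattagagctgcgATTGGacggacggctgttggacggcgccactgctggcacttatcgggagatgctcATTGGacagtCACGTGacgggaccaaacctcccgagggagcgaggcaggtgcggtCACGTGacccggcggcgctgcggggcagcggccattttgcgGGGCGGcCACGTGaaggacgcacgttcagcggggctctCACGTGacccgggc
BCL2A1: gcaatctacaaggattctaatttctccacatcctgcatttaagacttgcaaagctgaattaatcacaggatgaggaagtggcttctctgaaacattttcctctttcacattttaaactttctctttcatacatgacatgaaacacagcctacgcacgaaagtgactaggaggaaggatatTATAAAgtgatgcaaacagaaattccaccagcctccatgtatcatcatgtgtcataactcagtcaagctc
The BAX window held 4 matches to the E-box, a sequence bound by basic helix-loop-helix factors. Of 34943 windows of this length, 2209 (6.32%) held at least 1 E-box and 5 (0.0143%) held 4 or more. Those 5 include the BAX window, whose own count is the cutoff, so this share is a description and not a test. It also held 1 GC-box and 2 CCAAT-box matches, which 42.5% and 32.0% of all windows hold at least once, and 25 CpG dinucleotides against a median of 11 over all windows. The BCL2A1 window held 1 TATA-box, present in 10.8% of all windows, 2 CpG dinucleotides, and 0 matches to the other motifs, with a GC content of 38.8% against 62.8% for BAX. Windows were matched for 9 of the 10 members, and among the others E-box matches were in the BBC3 window and in some of the BID windows. A match describes the letters only.

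Among the pro-survival genes, MCL1 and BCL2 were nearly level between the groups and BCL2L1 was lower in both knockdown libraries. MCL1 (ENSG00000143384.7, chromosome 1, 150574551 to 150579738 on GRCh38, minus strand), whose product is the short-lived guardian of many haematopoietic cells, stood at 55.5 and 57.3 FPKM in control replicates 0 and 1 and at 57.1 and 55.3 FPKM in knockdown replicates 0 and 1. The groups interleave: the highest and the second lowest values are controls. Its log2 change was -0.0049 ± 0.0508 (SE, 2 libraries a group), with a 95% interval of -0.13 to 0.12 and a limma adjusted p of 0.97.

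BCL2 (ENSG00000171791.9, chromosome 18, 63123346 to 63320128, minus strand), the founding member, stood at 17.9 and 16.6 FPKM in control and at 16.8 and 18.7 FPKM in knockdown libraries. The groups overlap, with the highest value in knockdown replicate 1. The log2 change was 0.04 ± 0.07 (SE), with a 95% interval of -0.14 to 0.21 and a limma adjusted p of 0.84.

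BCL2L1 (ENSG00000171552.8, chromosome 20, 31664452 to 31723989, minus strand) stood at 49.0 and 50.4 FPKM in control and at 47.8 and 44.2 FPKM in knockdown libraries. Both knockdown values are below both controls, with knockdown replicate 1 furthest away. The group means were 49.7 ± 1.02 and 46.0 ± 2.58 FPKM (SD, n = 2 each), and their ratio was 0.926. The log2 change of -0.11 ± 0.06 (SE) had a 95% interval of -0.25 to 0.03 and did not pass, at a limma adjusted p of 0.39. It was -0.17 without knockdown replicate 0 and -0.05 without knockdown replicate 1. GENCODE 29 lists 9 transcripts, and 1 value per gene does not separate the long product, which protects, from the short one, which kills. The antisense gene ABALON covers 43.0% of the exon bases of BCL2L1 and has no row in the table; whether its reads count toward BCL2L1 was not tested, since strand-specific counting is not stated.

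BCL2A1 (ENSG00000140379.7, chromosome 15, 79960889 to 79971446, minus strand), a gene switched on by NF-κB in activated lymphocytes and myeloid cells, stood at 0.0252 and 0.0174 FPKM in control replicates 0 and 1 and was listed at 0 in both knockdown libraries. Over a transcript of 1033 nt, and at the recovered depth, the control values stand for 1.56 and 2.28 fragments. All 4 libraries are under a floor of 3 fragments, so a difference was not detectable at this depth and no fold is given.

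Both effector genes had lower values in both knockdown libraries, and neither passed the test. BAX (ENSG00000087088.14, chromosome 19, 48954815 to 48961798, plus strand), which moves from the cytosol to mitochondria to form pores, stood at 79.0 and 76.9 FPKM in control and at 71.6 and 72.7 FPKM in knockdown libraries. The groups do not overlap, and the distance between their means is larger than either spread. The means were 77.9 ± 1.47 and 72.2 ± 0.775 FPKM (SD, n = 2 each), and their ratio was 0.926. The log2 change was -0.11 ± 0.05 (SE, limma), with a 95% interval of -0.23 to 0.0077 and a limma adjusted p of 0.32.

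BAK1 (ENSG00000030110.7, chromosome 6, 33572547 to 33580293, minus strand), the pore former that resides on mitochondria, stood at 17.6 and 17.9 FPKM in control and at 16.3 and 16.1 FPKM in knockdown libraries. Here too the groups do not overlap, and the values within a group are close. The means were 17.8 ± 0.225 and 16.2 ± 0.0980 FPKM (SD, n = 2 each), and their ratio was 0.912. The log2 change was -0.13 ± 0.05 (SE, limma), with a 95% interval of -0.25 to 0.0026 and an adjusted p of 0.31. The processed pseudogene BAK1P1 had values of 0.470 to 0.637 FPKM and BAK1P2 was listed at 0 in all 4 libraries; reads shared with these copies were not told apart.

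The BH3-only genes divided: BBC3 and BID were lower in both knockdown libraries, while BCL2L11 and BAD overlapped between the groups with higher knockdown means. BBC3 (ENSG00000105327.10, chromosome 19, 47220822 to 47232766, minus strand), a p53 target, stood at 27.8 and 28.2 FPKM in control and at 25.8 and 24.0 FPKM in knockdown libraries. The groups do not overlap, and the controls differ by less than the knockdown libraries do. The means were 28.0 ± 0.253 and 24.9 ± 1.25 FPKM (SD, n = 2 each), and their ratio was 0.889. The log2 change of -0.16 ± 0.06 (SE) had a 95% interval of -0.30 to -0.03, with an unadjusted limma p of 0.027 and an adjusted p of 0.25.

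BID (ENSG00000015475.14, chromosome 22, 17734138 to 17774770, minus strand), which links death receptors to mitochondria once caspase-8 has cleaved it, stood at 32.6 and 32.4 FPKM in control and at 28.6 and 31.9 FPKM in knockdown libraries. Knockdown replicate 1 lies just under the controls and knockdown replicate 0 well below them. The log2 change was -0.10 ± 0.07 (SE), with a 95% interval of -0.26 to 0.06 and a limma adjusted p of 0.47. It was -0.02 without knockdown replicate 0 and -0.18 without knockdown replicate 1.

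BCL2L11 (ENSG00000153094.15, chromosome 2, 111119378 to 111168447, plus strand), whose product BIM removes self-reactive and growth-factor-deprived lymphocytes, stood at 4.77 and 4.14 FPKM in control and at 4.75 and 5.23 FPKM in knockdown libraries. Control replicate 0 and knockdown replicate 0 are level, so the groups overlap. The means were 4.45 ± 0.445 and 4.99 ± 0.338 FPKM (SD, n = 2 each), and their ratio was 1.12. The log2 change was 0.14 ± 0.09 (SE, limma), with a 95% interval of -0.07 to 0.35 and a limma adjusted p of 0.47. It was 0.05 without control replicate 1 and 0.22 without control replicate 0. GENCODE 29 lists 25 transcripts of the gene, whose levels this 1 value does not separate. The long non-coding gene MIR4435-2HG lies on the other strand over 10.9% of its exon bases, at 0.322 to 0.701 FPKM.

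BAD (ENSG00000002330.8, chromosome 11, 64269830 to 64284704, minus strand), held inactive by 14-3-3 proteins when survival signals phosphorylate it, stood at 6.06 and 6.38 FPKM in control and at 6.11 and 6.78 FPKM in knockdown libraries. The groups overlap, and the highest value is knockdown replicate 1. The log2 change was 0.04 ± 0.07 (SE), with a 95% interval of -0.13 to 0.22 and a limma adjusted p of 0.80. GPR137, a gene on the opposite strand at 10.0 to 10.8 FPKM, covers 23.7% of the exon bases of BAD, so the level of BAD is uncertain without strand-specific counting.

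**Figure D1:**
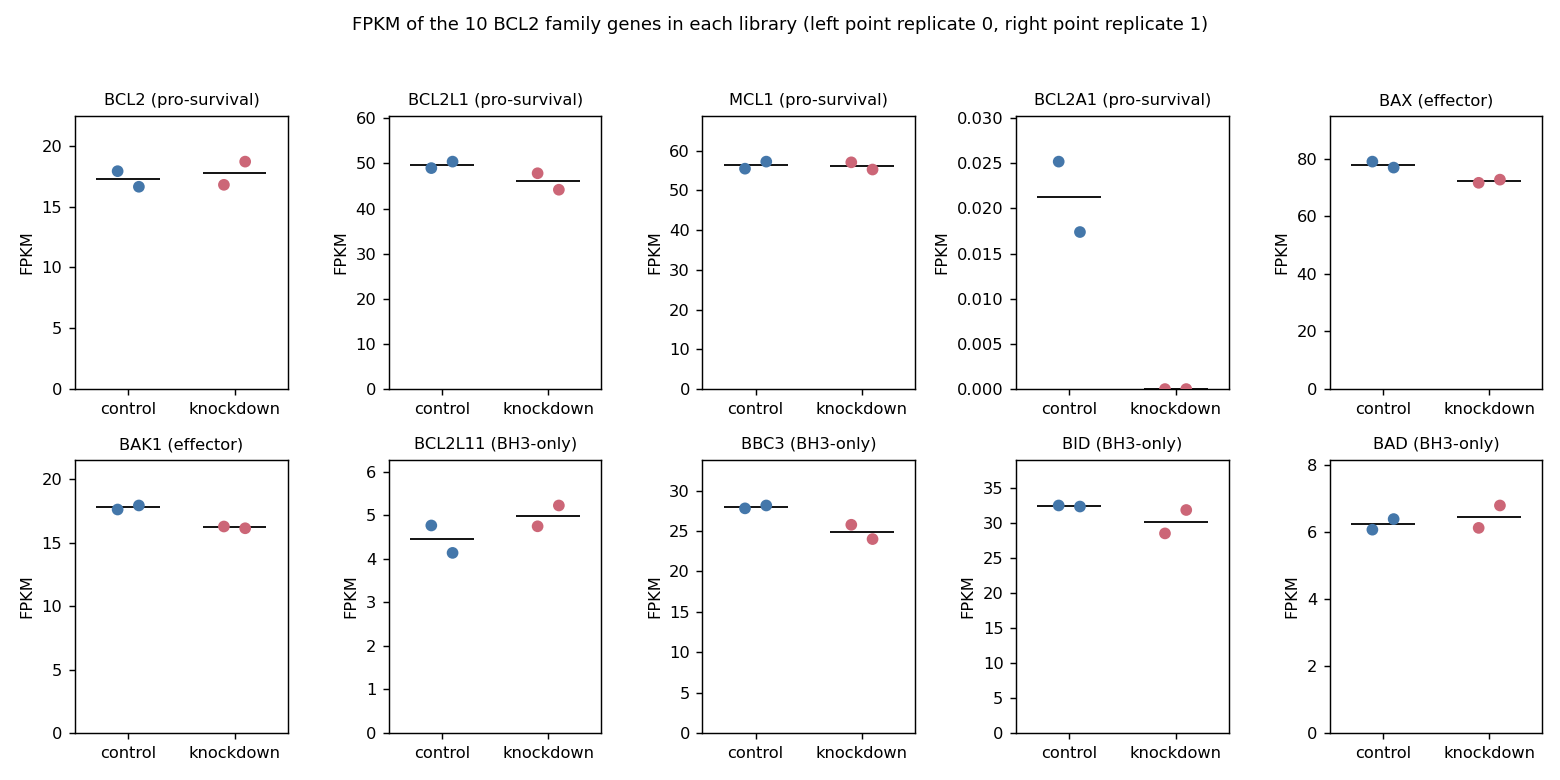
FPKM of each member (vertical axes, linear from 0, a scale of its own in each panel) in 2 control and 2 knockdown libraries; points are libraries and bars are group means. BAX and BAK1 show separate groups with close replicates, MCL1, BCL2, BCL2L11 and BAD show overlapping groups, and BCL2A1 lies at or under 0.0252 FPKM.

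Over the members, 0 of the 9 tested passed limma at an adjusted p of 0.05, where 0.0309% of all 12935 tested genes did. At an unadjusted p under 0.05, 1 member was lower, BBC3, and 0 were higher, where 9.35% of all tested genes were lower and 7.25% higher. In 5 of the 9 (BCL2L1, BAX, BAK1, BBC3 and BID) the groups did not overlap with knockdown lower, and in 0 with knockdown higher, where 27.7% and 22.5% of all tested genes did so. The median log2 change was -0.10 over the 9 members and -0.0090 over all tested genes. The 95% intervals of all 9 lay within ratios of 0.811, the lower bound of BBC3, and 1.27, the upper bound of BCL2L11, on the FPKM + 1 scale. With 2 libraries a group an exact two-sided permutation test of a single gene cannot give a p under 0.333, so the spread was pooled over genes.

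**Figure D2:**
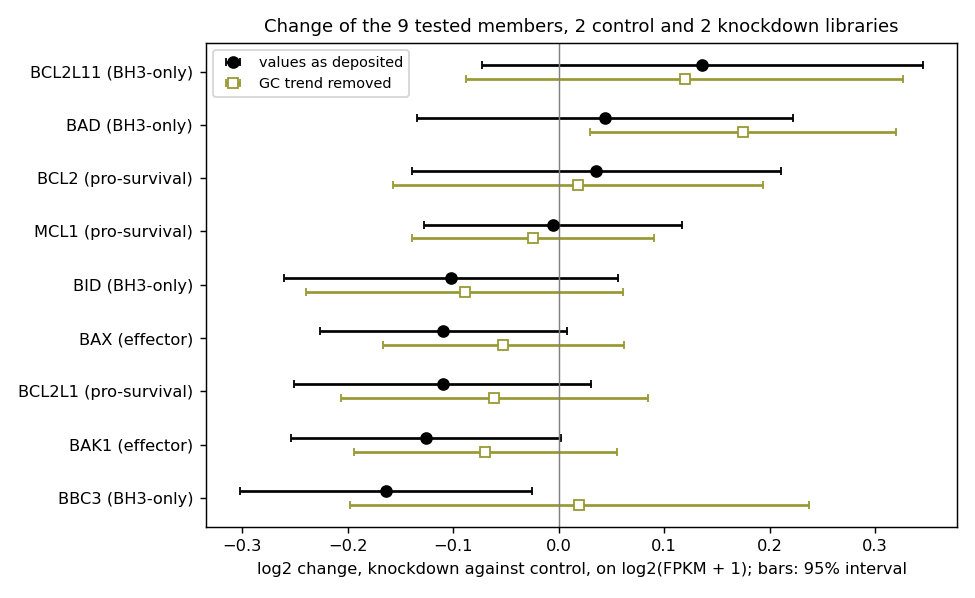
Log2 change of the 9 tested members on log2(FPKM + 1) (horizontal axis), knockdown against control, with 95% intervals; filled circles are from the deposited values and open squares after the trend with transcript GC content was taken off. BBC3 moves from -0.16 to 0.02 and BAD from 0.04 to 0.18 between these fits.

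Transcript base composition moved with these changes. Across 12499 tested genes with a transcript sequence, log2 changes were lower at higher GC content (Spearman rho -0.41; the points are genes of the same 4 libraries, not replicates). The median change was 0.06 in the 1841 genes of up to 40% GC and -0.13 in the 490 genes over 65%. The members spanned much of this range: MCL1 at 45.1%, BCL2 at 45.6%, BCL2L11 at 45.7% and BID at 49.7%, then BCL2L1 at 56.9%, BAK1 at 58.8%, BAX at 58.9%, BAD at 66.3% and BBC3 at 69.7%. With the GC trend removed from each library, BBC3 turned from -0.16 to 0.02, with a 95% interval of -0.20 to 0.24 and a limma adjusted p of 0.94. BAX and BAK1 went from -0.11 and -0.13 to -0.05 and -0.07, and BCL2L1 from -0.11 to -0.06. BID stood at -0.09, BCL2L11 at 0.12 and BCL2 at 0.02, and MCL1 was at -0.02. BAD, the other GC-rich member, moved to 0.18, with a 95% interval of 0.03 to 0.32, an unadjusted limma p of 0.025 and an adjusted p of 0.30. The members' median became -0.02, and 0 of 9 were called. Why GC content moved with the groups was not tested.

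**Figure D3:**
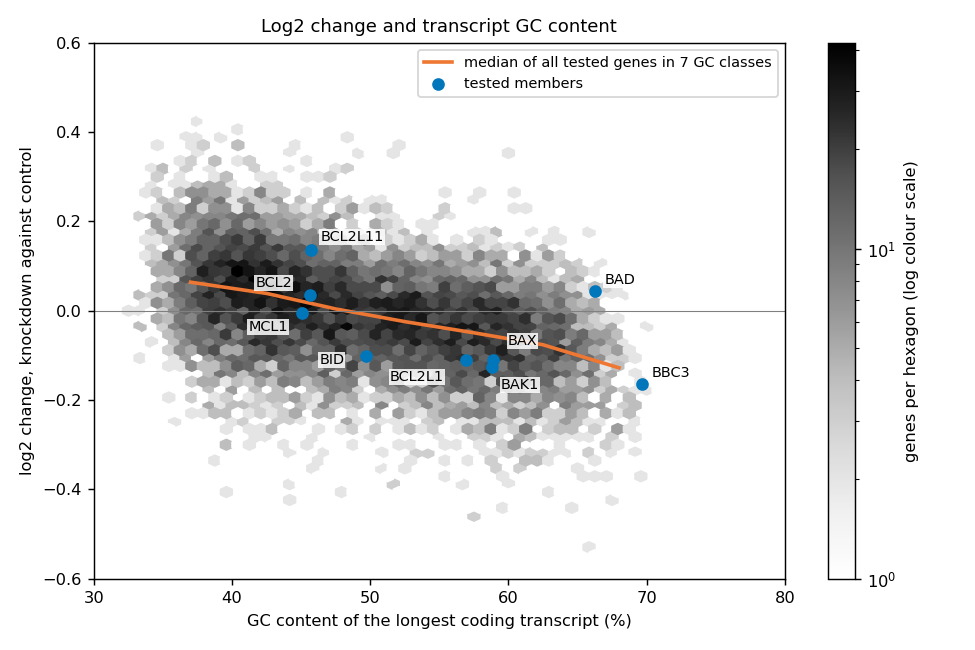
Log2 change on log2(FPKM + 1) (vertical axis) against the GC content of the longest coding transcript in percent (horizontal axis); grey hexagons count the tested genes on a log colour scale, the line joins their medians in 7 GC classes, and blue points are members. The line falls from 0.06 to -0.13, and BBC3 lies near it at the GC-rich end while BAD lies above it; genes beyond the axis limits are not drawn.

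Within each role, the order of the members by level was the same in all 4 libraries. MCL1 made up 45.3% to 46.9% of the summed pro-survival FPKM, BCL2L1 37.4% to 40.5% and BCL2 13.4% to 15.8%. BAX made up 81.1% to 81.8% of the effector sum, 4.29 to 4.50 times the level of BAK1, with groups that overlap. Among the BH3-only genes BID held 43.8% to 47.0% and BBC3 35.3% to 39.6%, against 8.51% to 9.98% for BAD and 5.82% to 7.69% for BCL2L11.

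The summed effector level was 96.6 and 94.9 FPKM in control and 87.9 and 88.9 FPKM in knockdown libraries, a ratio of 0.923. The BH3-only sum was 71.2 and 71.1 FPKM against 65.2 and 67.9 FPKM, a ratio of 0.936. The pro-survival sum was 122.4 and 124.3 FPKM against 121.7 and 118.2 FPKM, a ratio of 0.972. In each role the groups do not overlap, and the pro-survival groups are separated least. BAX makes up most of the effector sum, and BID and BBC3 most of the BH3-only sum, so these sums repeat members described above. The share of other sums of genes that separate the groups was not counted, and no sums were computed with the GC trend removed. The pro-survival sum was 1.27 and 1.31 times the effector sum in control and 1.38 and 1.33 times in knockdown libraries. It was 1.72 and 1.75 times the BH3-only sum in control and 1.87 and 1.74 times in knockdown libraries, where the groups overlap. Only some ratios between 2 members of a role were computed, and among BH3-only genes only that of BBC3 to BCL2L11. Of these, MCL1 to BCL2 (2.96 to 3.44), BCL2L1 to BCL2 (2.36 to 3.03) and BAX to BAK1 overlapped between the groups. Those of BCL2L1 to MCL1 and BBC3 to BCL2L11 did not. BCL2L1 stood at 0.882 and 0.880 of MCL1 in control and at 0.838 and 0.799 in knockdown libraries. BBC3 stood at 5.83 and 6.81 times BCL2L11 in control and 5.43 and 4.59 times in knockdown libraries. The share of all gene pairs whose ratios separate the groups was not counted. With the GC trend removed, BCL2L1 and MCL1 had log2 changes of -0.06 and -0.02 in place of -0.11 and -0.0049. BBC3 and BCL2L11 had 0.02 and 0.12 in place of -0.16 and 0.14. These pairs lay closer together in that fit. BID and BAD, whose ratio was not computed, lay further apart, at -0.09 and 0.18 in place of -0.10 and 0.04. The part of GC content in these ratios was not tested. On removing the GC trend, the median log2 change went from -0.12 to -0.06 over the effectors and from -0.03 to 0.07 over the BH3-only genes. Over the tested pro-survival genes it went from -0.0049 to -0.02, so the order of the roles differed between the fits. No p is given for these sums and ratios, since the members were chosen with results known.

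**Figure D4:**
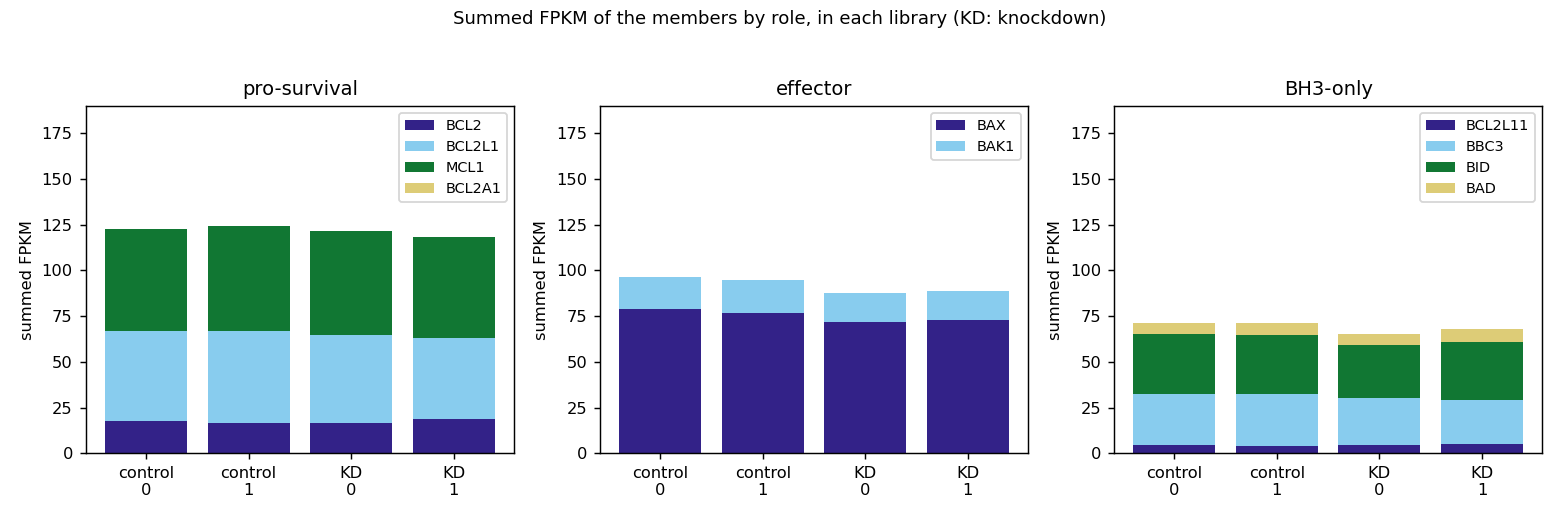
Summed FPKM (vertical axis, from 0) of the members of each role, stacked by gene, in each of the 4 libraries; KD stands for knockdown. The effector bars stand at 94.9 to 96.6 FPKM in control and 87.9 to 88.9 FPKM in knockdown libraries, and BCL2A1 is too low to be seen.

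Of 13 other BCL2 family genes, 8 were tested, 2 with positive and 6 with negative log2 changes and a median of -0.05. In limma 0 passed over all genes, and 1 was higher and 1 lower at an unadjusted p under 0.05. Over all tested genes, 7.25% were higher and 9.35% lower at that threshold. PMAIP1, which encodes NOXA, a BH3-only protein that binds MCL1, stood at 32.7 and 33.8 FPKM in control and at 39.7 and 41.1 FPKM in knockdown libraries, with a log2 change of 0.27 (95% interval 0.15 to 0.40) and a limma adjusted p of 0.19. Both knockdown values lie above both controls by more than either group spans. The BH3-only genes BIK, at 9.72 and 10.6 against 8.59 and 8.40 FPKM, and BMF, at group means of 30.8 and 27.4 FPKM, had log2 changes of -0.23 and -0.16 and limma adjusted p of 0.21 and 0.30. BNIP3L, a mitophagy receptor gene with a BH3-like stretch, was the most abundant of this list at a ratio of 0.999. With the GC trend removed PMAIP1 stood at 0.20, BIK at -0.19 and BMF at -0.12. In both fits PMAIP1, BCL2L11 and BAD had positive and BID, BIK and BMF negative log2 changes, while BBC3 turned from -0.16 to 0.02.

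Downstream of BAX and BAK1, all 15 genes of mitochondrial release, the apoptosome and the executioner caspases were tested; 10 had positive and 5 negative log2 changes, with a median of 0.02. In limma 0 passed over all genes. At an unadjusted p under 0.05, where 7.25% of all tested genes were higher, 2 of this list were. CYCS, the cytochrome c gene and one of these, stood at 42.3 and 38.4 FPKM in control and at 44.1 and 50.6 FPKM in knockdown libraries, a log2 change of 0.22 with a limma adjusted p of 0.26. The groups do not overlap, and knockdown replicate 1 sets most of the distance. VDAC1 and VDAC2, channels of the outer membrane, of which VDAC2 binds BAK1, stood at ratios of 0.974 and 1.01.

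Of 8 genes of the inhibitors of apoptosis and their antagonist XAF1, 5 were tested, 3 positive and 2 negative, with a median of 0.04, and 0 passed limma, also at an unadjusted p under 0.05. BIRC2, a ubiquitin ligase gene, had a log2 change of 0.12, with both knockdown values above both controls, and XIAP, which blocks caspases directly, at 11.0 and 11.5 FPKM in control and 10.6 and 9.64 FPKM, with limma adjusted p of 0.36 and 0.37. With the GC trend removed BIRC2 stood at 0.06 and XIAP at -0.19 (95% interval -0.33 to -0.04), with an unadjusted limma p of 0.018 and an adjusted p of 0.29 for XIAP. BIRC5 and BIRC6 stood at ratios of 1.08 and 0.954. BIRC3, BIRC7 and NAIP were under the filter, at 0.431 to 0.902 FPKM.

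Of 14 death receptor genes, which feed into BID, 10 were tested, 2 positive and 8 negative, with a median of -0.06, and 0 passed limma, also at an unadjusted p under 0.05. CFLAR, which encodes the caspase-8 inhibitor FLIP, stood at 9.29 and 9.70 against 8.79 and 8.07 FPKM (limma, adjusted p 0.32). With the GC trend removed the list had 4 positive and 6 negative changes with a median of -0.03, and CFLAR stood at -0.18 (95% interval -0.33 to -0.03), with an unadjusted limma p of 0.023 and an adjusted p of 0.30. The TRAIL receptor gene TNFRSF10B was the most abundant, at 64.7 and 70.3 against 65.7 and 60.3 FPKM with groups that overlap, and TNFRSF1A stood at a ratio of 0.949.

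Of 18 genes for proteins that bind, modify or degrade the members' products, 17 matched and 16 were tested, 9 positive and 7 negative, with a median of 0.03. None of them passed limma over all genes. At an unadjusted p under 0.05, where 9.35% of all tested genes were lower, 1 of this list was. That gene was YWHAQ, a 14-3-3 gene of the family that binds phosphorylated BAD, at 168.9 and 180.7 FPKM in control and 138.1 and 147.9 FPKM in knockdown libraries, with a log2 change of -0.29 (95% interval -0.43 to -0.14) and a limma adjusted p of 0.19. Its groups are wide apart, and the change was -0.31 with the GC trend removed. The other 14-3-3 genes tested had ratios of 1.08 for YWHAB, 1.05 for YWHAE, 1.03 for YWHAZ, 1.03 for YWHAG and 0.991 for YWHAH, the last 2 named after their values were seen, to complete the family. The log2 change of YWHAZ turned to -0.0024 with quantile normalization. RPS6KA1, which encodes a kinase that phosphorylates BAD, stood at a ratio of 0.926, and SFN was under the filter.

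**Figure D5:**
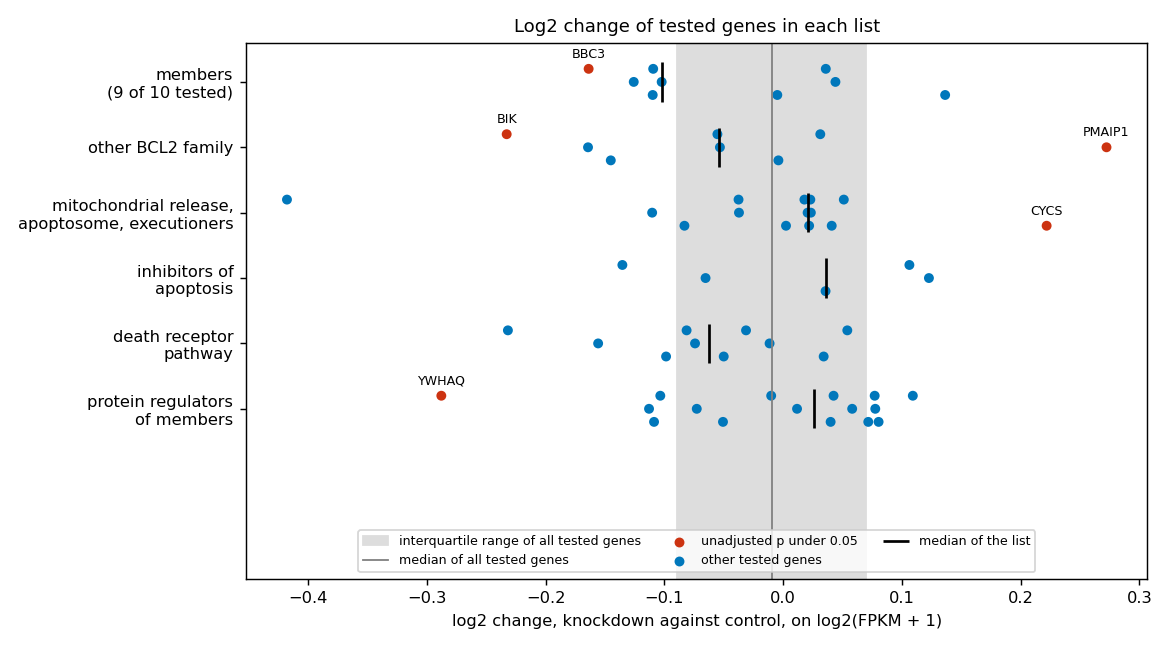
Log2 change on log2(FPKM + 1) (horizontal axis) of the tested members and of tested genes of 5 lists of related genes (rows; 1 gene is not drawn), with the median of each whole list as a black bar; the grey band is the interquartile range of all tested genes. Red points, labelled, had an unadjusted limma p under 0.05: BBC3, BIK and YWHAQ on the lower side and PMAIP1 and CYCS on the higher side.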

How the data were processed

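The submitters' processing notes name hg19 as the build and Cuffdiff 2.2.1, TopHat2 2.0.14 and Bowtie2 2.2.5 as tools; the sources used here do not give their options, the annotation or how libraries were scaled. Per the labels' protocols, polyadenylated RNA went through the TruSeq mRNA kit. The deposited values were read as FPKM from their range and the name of the ID column. IDs were matched to symbols and to GENCODE 29 positions (GRCh38, not the authors' build) and to RefSeq promoters; 111 of 114 list genes matched (not DYNLL2, CD24 and MRC1).

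Knockdown was compared with control with limma 3.58.1 (R 4.3.3) on log2(FPKM + 1), which understates the change of low genes. It covered HAL7 and the genes averaging 1 FPKM or more over the 4 libraries, with a variance trend; p-values were two-sided and adjusted by Benjamini-Hochberg over all 12935 genes tested. The GC trend was a spline of each library's deviations on the GC content of the longest coding transcript. The fit was tested on simulated data. The members and lists were chosen with earlier results of these data known. Named are HAL7, the members and, per list, the 3 genes of smallest p, the 2 most abundant, and genes under the filter where at most 3; 1 gene is not reported here.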

Additional observations from a re-analysis of the deposited data

How the results depend on the processing

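The count of called members stayed at 0 of those tested in limma under all 15 alternatives that kept an adjusted p, and was 1 (BBC3) at an unadjusted p under 0.05. Over all genes, limma called 4; the count was 2 with a pseudocount of 0.1, 0 without a filter (3002 at an unadjusted p under 0.05), 1 with a mean of at least 5 FPKM, 11 to 22 when a library was left out, and 2148 at an unadjusted p under 0.05. With the replicate number as a block, 19 genes and 0 members were called, and with the GC trend removed as well 0 genes (1463 at an unadjusted p under 0.05); deviations of same-numbered libraries correlated at r = 0.12 across genes and at -0.03 without the genes of largest deviation, from 2 pairs only, so the numbers were not taken to pair libraries. BCL2L1, BAX, BAK1, BID and BCL2L11 kept their direction under every alternative run. When a library was left out, log2 changes ran from -0.0376 to 0.1093 for BCL2 (negative without control replicate 1, -0.0147, or knockdown replicate 1), from -0.0278 to 0.0179 for MCL1 (positive without control replicate 1, 0.0174, or knockdown replicate 1), from -0.0208 to 0.1088 for BAD (negative without knockdown replicate 1), from -0.0798 to 0.0718 for BNIP3L (positive without knockdown replicate 1) and from -0.011 to 0.0521 for VDAC2 (negative without control replicate 0 or, at -0.0029, knockdown replicate 1). Without knockdown replicate 1, log2 changes were 0.12 for CYCS, -0.08 for BMF, -0.07 for XIAP and -0.10 for CFLAR. The direction also turned for BBC3 with the GC trend removed, alone or with the replicate block (0.0195 in both), for MCL1 and BNIP3L with median centring (0.0013 and 0.0022), and for VDAC2 and YWHAZ with quantile normalization (-0.0027 and -0.0024). All of these were uncalled; beyond the settings' own construction the cause was not tested. These fits on 3 libraries assume that the group with 1 library left has the other group's spread. Depth limits BCL2A1.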

Other observations

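The SD was larger in the knockdown than in the control group in 6 of the 9 tested members, and in 34 of the 54 tested genes of the wider lists. Each SD rests on 2 values, and the share over all tested genes was not counted, so these counts do not set the lists apart. The knockdown libraries lay furthest apart, relative to their mean, in 2 of the tested genes of the wider lists. ENDOG, a mitochondrial nuclease gene with a transcript GC content of 67.7%, stood at 5.41 and 5.55 FPKM in control replicates 0 and 1, at 2.92 FPKM in knockdown replicate 0 and at 5.02 FPKM in knockdown replicate 1. FADD, the adaptor of death receptors (GC content 58.6%), stood at 4.30 and 4.39 FPKM in control, at 2.88 FPKM in knockdown replicate 0 and at 4.34 FPKM in knockdown replicate 1. In both, knockdown replicate 0 alone lies far below the rest, as it does to a lesser degree in BID. Their limma adjusted p were 0.32 and 0.47.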
